A study of Mus musculus with 5 samples.

Results

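The genes described here encode the nuclear subunits of oxidative phosphorylation outside complex IV, together with assembly factors that share their names. They were taken as every gene listed beside a ChIP region whose symbol begins with Nduf, Uqcr, Sdh or Atp5, which gave 74 of the 17548 genes listed in the H2A.Z and ANP32E tables. A gene's promoter was the listed region closest to its start, at most 1000 bp away or overlapping it. By that rule 70 of the 74 genes had an H2A.Z promoter region, out of 13737 genes in all, and 40 had an ANP32E promoter region, out of 5494 in all. The 74 genes comprised 7 core and 28 accessory subunits of complex I, 4 subunits of complex II, 8 of complex III, 5 of the F1 part and 9 other subunits of complex V, 11 assembly factors and relatives, and the 2 members of the NDUFA4 family. NDUFA4 carries a complex I name but is now counted with complex IV.

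H2A.Z and ANP32E were profiled by chromatin immunoprecipitation and sequencing (ChIP-seq) in whole hearts of male C57BL/6 mice aged 12 weeks. The TAC hearts, given as hypertrophied, were collected 4 days after transaortic coarctation, surgery that narrows the aorta so that the left ventricle pumps against a higher pressure, and the sham hearts, given as normal, came from sham-operated mice. The H2A.Z antibody was from Active Motif and the ANP32E antibody from Abcam, with 1 library per antibody and condition, and an input library from pooled heart was not analysed here. Nothing could be tested across animals, so every difference below describes these 4 libraries and has no replicate check. How many hearts went into a library is not known from the labels. In whole hearts, fewer cells of a type and less signal per cell cannot be told apart.

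Oxidative phosphorylation passes electrons from NADH through complex I, or from succinate through complex II, to ubiquinone and on through complex III and cytochrome c to complex IV, and complex V makes ATP from the proton gradient that results. Heart muscle depends on it for most of its ATP. H2A.Z is a variant of histone H2A found in the nucleosomes that flank active promoters, and ANP32E is a chaperone that binds H2A.Z and can remove it from nucleosomes.

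In these libraries the H2A.Z signal at the promoters of the 70 genes was nearly the same in TAC and sham hearts, in every complex. An ANP32E region was listed at 40 of the 70 promoters, or 57.1%, beside 39.6% of all genes with an H2A.Z promoter. Of those 40 regions, 20 were called in both libraries, 18 in the sham library only and 2 in the TAC library only. Their average ANP32E signal was lower in TAC hearts at 35 of the 40, or 87.5%, beside 63.5% of all ANP32E promoters. The median log2 ratio of TAC to sham at the 40 genes was -0.30. ANP32E regions over the whole table had a median ratio of -0.26, and all ANP32E promoters one of -0.14, so part of that difference was shared with regions outside these genes. The lowest ratios were at Atp5o, Uqcrh and Atp5l, and the highest were at Ndufaf5 and Ndufa13.

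The promoter sequences of 5 genes are given as examples, and no ChIP signal or ratio here depends on them. Uqcrh, Atp5l and Atp5o had the lowest ANP32E ratios, Ndufaf5 had the highest, and Ndufa11 had one of the 4 strongest H2A.Z promoters. Each run covers 250 bases before and 30 bases after the gene start in RefSeq (GRCm38.p6, the assembly of mm10), read 5′ to 3′ on the gene's strand. They lie at chr4:116075041-116075320 (minus strand) for Uqcrh, chr9:44920713-44920992 (minus strand) for Atp5l, chr16:91931601-91931880 (minus strand) for Atp5o, chr2:140170396-140170675 (plus strand) for Ndufaf5 and chr17:56717512-56717791 (plus strand) for Ndufa11. Capitals mark matches, on either strand, to GCGCATGCG, the NRF1 motif, and to CCGGAAG, the motif of GABP and other ETS factors. NRF1 and GABP are the classic activators of nuclear respiratory genes.
Uqcrh: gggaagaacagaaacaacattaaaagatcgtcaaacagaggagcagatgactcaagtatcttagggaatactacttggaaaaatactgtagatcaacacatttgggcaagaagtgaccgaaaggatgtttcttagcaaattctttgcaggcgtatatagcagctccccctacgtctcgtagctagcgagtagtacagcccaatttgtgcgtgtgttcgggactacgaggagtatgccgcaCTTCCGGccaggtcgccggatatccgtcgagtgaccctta
Atp5l: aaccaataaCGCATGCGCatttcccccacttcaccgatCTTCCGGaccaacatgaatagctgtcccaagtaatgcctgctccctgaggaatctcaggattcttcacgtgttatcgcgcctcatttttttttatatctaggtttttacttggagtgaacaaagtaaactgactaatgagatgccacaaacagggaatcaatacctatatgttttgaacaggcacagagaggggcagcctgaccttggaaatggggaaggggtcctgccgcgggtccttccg
Atp5o: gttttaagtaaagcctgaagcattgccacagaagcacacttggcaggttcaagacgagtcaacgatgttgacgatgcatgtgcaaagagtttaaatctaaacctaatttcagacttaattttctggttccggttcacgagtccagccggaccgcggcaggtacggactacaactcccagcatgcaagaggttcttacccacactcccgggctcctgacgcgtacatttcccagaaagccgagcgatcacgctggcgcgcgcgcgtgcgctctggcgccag
Ndufaf5: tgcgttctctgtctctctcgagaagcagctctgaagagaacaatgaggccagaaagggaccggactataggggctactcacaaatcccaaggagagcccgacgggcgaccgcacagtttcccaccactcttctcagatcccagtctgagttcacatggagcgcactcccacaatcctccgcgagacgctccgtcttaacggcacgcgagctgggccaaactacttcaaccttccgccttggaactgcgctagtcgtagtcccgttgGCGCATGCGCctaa
Ndufa11: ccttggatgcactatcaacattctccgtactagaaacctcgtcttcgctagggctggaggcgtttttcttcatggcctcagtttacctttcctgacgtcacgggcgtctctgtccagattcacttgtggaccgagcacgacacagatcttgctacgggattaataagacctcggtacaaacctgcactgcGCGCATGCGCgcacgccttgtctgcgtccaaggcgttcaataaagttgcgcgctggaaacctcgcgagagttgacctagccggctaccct

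Each of the 5 windows lay wholly inside the H2A.Z region of its gene. Uqcrh held an ETS match just before its start, Atp5l held an NRF1 and an ETS match near the far end of the window and a further ETS match from base 25, which runs past the end of the stretch shown and is not in capitals, and Ndufaf5 and Ndufa11 each held an NRF1 site that reads the same on both strands. Atp5o held none of these motifs in the window shown, which says only that these letters are not there. Ndufa13 and Ndufb2, whose H2A.Z promoters were stronger than that of Ndufa11, also held none of them in their RefSeq windows. The Ndufa13 window was set on a RefSeq start 538 bp downstream of the start used for its H2A.Z region. It does not cover that other start, so the sequence there was not searched.

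The values that follow are average signals per region in the authors' units, and the sources used here do not say how they were scaled. The depth behind each value is therefore unknown, and the H2A.Z and ANP32E tables are not compared in level. The H2A.Z table held 31098 regions, with 27326 called in the TAC library and 27680 in the sham library. Of the 8444 ANP32E regions, 4220 were called in the TAC library and 7024 in the sham library. The tissue label was compared with marker genes. Of 11 cardiomyocyte markers, 5 had an H2A.Z promoter region (Gata4, Nkx2-5, Tbx5, Tnni3 and Tnnt2), with summed signals of 74.1 in TAC and 81.6 in sham hearts, while Myh6, Myh7, Actc1, Ttn, Ryr2 and Mb had none. All 6 endothelial markers had one, with summed signals of 108 in TAC and 100.4 in sham hearts, as did 3 of 6 fibroblast, 2 of 3 smooth muscle, 1 of 5 leukocyte, 1 of 4 liver and 1 of 3 neuronal markers. For ANP32E, 4 cardiomyocyte markers had a promoter region (Gata4, Myh6, Tnni3 and Ttn), with summed signals of 22.2 in TAC and 33.5 in sham hearts, and 3 endothelial markers had one (16.5 in TAC, 26.0 in sham). None of the fibroblast, leukocyte, smooth muscle, liver or neuronal markers had an ANP32E promoter region. The part of cell composition in the ANP32E ratios below was not tested.

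The 70 promoters were taken because they had an H2A.Z region, which 4 of the 74 genes lacked. All 70 regions were called in both libraries, close to the 96.2% of all 13737 H2A.Z promoters. Of all promoters, 0.968% were called in the sham library only. The median average signal over the 70 genes was 31.5 in TAC and 30.4 in sham hearts, beside 28.4 in TAC and 27.6 in sham hearts over all promoters. The log2 ratio of TAC to sham, computed after adding 1 to both values, had a median of 0.043 and ran between -0.23 and 0.25, beside a median of 0.035 over all promoters. No gene was at least 1.5-fold higher or lower, beside 0.437% higher and 0.146% lower among all promoters. The ratios were above 0 at 47 of the 70 genes, or 67.1%, beside 60.1% of all promoters, and below 0 at 23, or 32.9%, beside 39.8%.

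**Figure D1:**
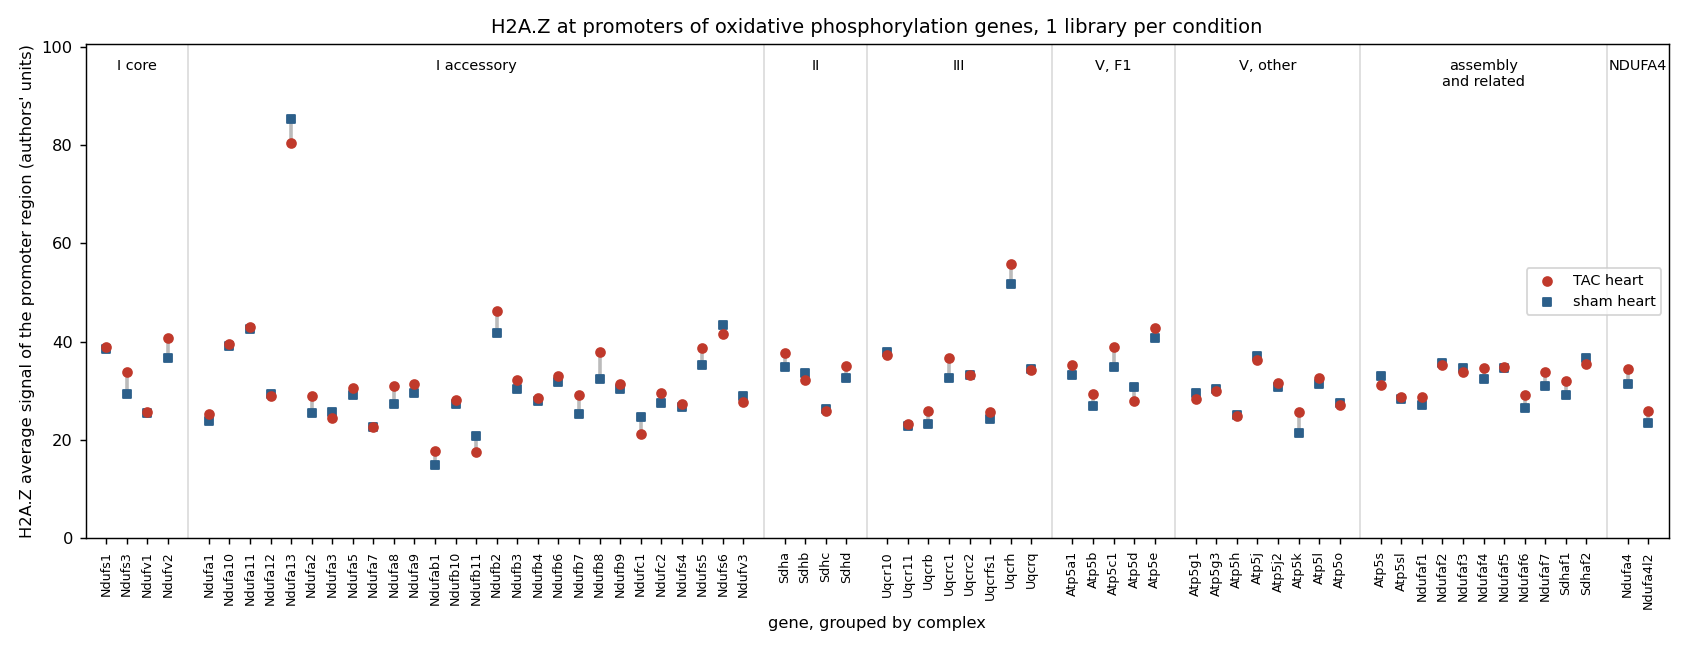
Average H2A.Z signal (authors' units, linear axis from 0) at the promoter region of 69 of the 70 genes, grouped by complex, with red circles for the TAC heart library, blue squares for the sham heart library and a grey line joining them. The 2 libraries lie close together at every gene, and Ndufa13 and Uqcrh stand above the rest in both.

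Among the core subunits of complex I, which carry the flavin, the iron-sulfur clusters and the ubiquinone site, 5 of 7 had an H2A.Z promoter region. Ndufs1, the large iron-sulfur subunit, had 38.8 in TAC and 38.5 in sham hearts, and Ndufv1, which binds NADH, had 25.6 in both. The highest ratio was at Ndufs3, a subunit of the ubiquinone module, with 33.8 in TAC and 29.3 in sham hearts (log2 ratio 0.20). Ndufv2, the small iron-sulfur partner of Ndufv1, had 40.7 in TAC and 36.7 in sham hearts. The core subunits described here were thus equal or slightly higher in TAC hearts. Ndufs7 and Ndufs8, which hold iron-sulfur clusters, had no promoter region, and their nearest listed H2A.Z regions were centred 12485 bp downstream and 14020 bp upstream of the start.

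Of the 28 accessory subunits, which surround and stabilise the core, 27 had an H2A.Z promoter, with a median log2 ratio of 0.04. Ndufab1, the mitochondrial acyl carrier protein, had 17.8 in TAC and 14.9 in sham hearts (0.25), and Ndufb8 had 37.9 in TAC and 32.4 in sham hearts (0.22). At the other end Ndufb11 had 17.6 in TAC and 20.8 in sham hearts (-0.23), and Ndufc1 had 21.2 in TAC and 24.7 in sham hearts (-0.21). Ndufab1, Ndufb11, Ndufa7 and Ndufc1 were the 4 weakest H2A.Z promoters of the 70, so 3 of the 4 most extreme ratios of the accessory subunits came from weakly marked promoters. The strongest of all 70 was Ndufa13, also known as GRIM-19, with 80.4 in TAC and 85.2 in sham hearts, followed by Uqcrh (55.8 in TAC, 51.8 in sham), Ndufb2 (46.2 in TAC, 41.7 in sham) and Ndufa11 (43.05 in TAC, 42.5 in sham). The strong promoters went both ways, with a log2 ratio of -0.08 at Ndufa13 and 0.14 at Ndufb2. Ndufa6 was the accessory subunit without a promoter region.

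Complex II, the succinate dehydrogenase shared with the citrate cycle, had a region at all 4 genes. The flavoprotein gene Sdha had 37.7 in TAC and 34.8 in sham hearts (log2 ratio 0.11), and the iron-sulfur subunit gene Sdhb had 32.3 in TAC and 33.7 in sham hearts (-0.06). The membrane anchor genes Sdhc and Sdhd had 26 and 35.1 in TAC hearts, against 26.2 and 32.7 in sham hearts. All 8 complex III genes taken by the naming rule had a region, with a median of 0.04. They ran from Uqcr10 (37.3 in TAC, 37.8 in sham, -0.02) to the core protein gene Uqcrc1 (36.7 in TAC, 32.6 in sham, 0.17). The Rieske iron-sulfur protein gene Uqcrfs1 had 25.6 in TAC and 24.3 in sham hearts.

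In complex V, the 5 genes of the F1 part had a median log2 ratio of 0.08. The alpha subunit gene Atp5a1 had 35.2 in TAC and 33.2 in sham hearts, the beta subunit gene Atp5b 29.4 in TAC and 26.9 in sham hearts, and the gamma subunit gene Atp5c1 38.8 in TAC and 34.9 in sham hearts. The delta subunit gene Atp5d was the exception, with 27.9 in TAC and 30.8 in sham hearts (-0.14), in a region of 23205 bp that was also the promoter region of Dos and Midn. Of the other 9 subunits 8 had a region, with a median of -0.02. Atp5k, the gene of subunit e, had the highest ratio of all 70 (25.7 in TAC, 21.4 in sham, 0.25), and Atp5g1, one of the genes of the membrane ring subunit c, had the lowest of its group (28.4 in TAC, 29.5 in sham, -0.05). Atp5g2, another gene of subunit c, had no promoter region, and the nearest one was 13862 bp downstream with 13.3 in TAC and 19.99 in sham hearts.

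Assembly factors, which build the complexes without staying in them, and relatives such as Atp5s had a median of 0.02 over 11 genes. They ran from Atp5s (31.1 in TAC, 33.0 in sham, -0.08) to Sdhaf1, an assembly factor of complex II (32.0 in TAC, 29.1 in sham, 0.14). The NDUFA4 family had 34.4 in TAC and 31.3 in sham hearts at Ndufa4 and 26.0 in TAC and 23.4 in sham hearts at Ndufa4l2, its hypoxia-induced relative. No class median lay more than 0.14 from equality.

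Peak signal, the highest value within a region, was also compared. It had a median of 107 in TAC and 98 in sham hearts over the 70 genes, with a median log2 ratio of 0.18, beside 0.14 over all promoters. The peak was higher in TAC hearts at 54 of the 70 genes, beside 74.9% of all promoters, and lower at 15, beside 22.1%. With peak signal 1 of the 70 genes passed 1.5-fold, beside 2.88% of all promoters. It was Atp5o, which encodes the subunit that joins the F1 head to the stator, with a peak of 123 in TAC and 79 in sham hearts (0.63), although its average was 27.2 in TAC and 27.5 in sham hearts. Average and peak pointed in opposite directions at 17 of the 70 genes, or 24.3%, and at 27.9% of all H2A.Z promoters.

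ANP32E was found at more of these promoters than at H2A.Z promoters in general. An ANP32E promoter region was listed for 40 of the 70 genes, or 57.1%, beside 39.6% of all genes with an H2A.Z promoter and 42.8% of those over a CpG island, a stretch of DNA rich in CpG pairs that many widely expressed genes have at their start. All 40 genes with an ANP32E promoter also had an H2A.Z promoter, as did 5440 of the 5494 genes with an ANP32E promoter in the whole table. ANP32E was listed more often where H2A.Z was stronger, in both sets. With all promoters split by mean H2A.Z signal into 4 groups of like size, the groups 2, 3 and 4 from the weakest held ANP32E at 47.4%, 59.3% and 68.2% of the oxidative phosphorylation genes, beside 37.2%, 50.2% and 61.3% of all genes. The weakest group held only 2 of the 70 genes, and neither had ANP32E. With ANP32E regions called in both libraries only, the shares were 28.6% and 19.2%. None of these differences was tested.

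The complexes differed in how many of their genes carried ANP32E. It was listed at 4 of 5 core and 15 of 27 accessory complex I promoters. In complex II it was at 3 of 4, and in complex III at 3 of 8. In complex V it was at 4 of 5 in the F1 part and at 5 of 8 of the other genes. Assembly factors and relatives had it at 5 of 11, and the NDUFA4 family at 1 of 2. The promoters with H2A.Z alone included Ndufs3, Sdhd, Uqcrc2, Uqcrq, Atp5e and Atp5k. These counts are too small to order the complexes.

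**Figure D2:**
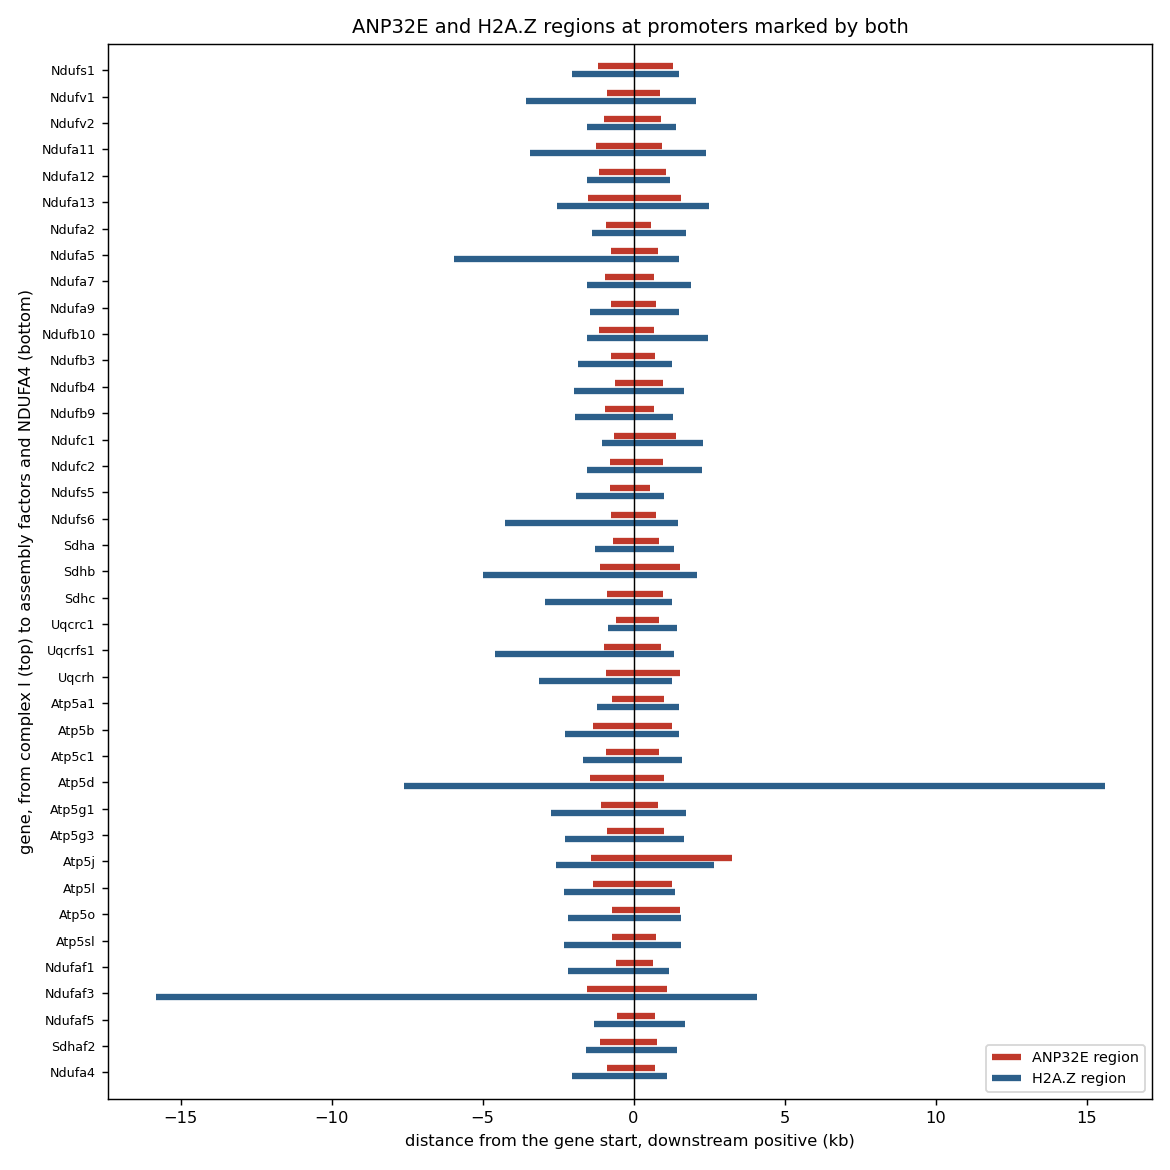
Extent of the ANP32E region (red, upper bar of each pair) and the H2A.Z region (blue, lower bar) at 39 of the 40 promoters with both, in kb from the gene start of the tables with downstream positive, and genes ordered by complex. ANP32E regions lie within the H2A.Z regions at 37 of these 39 genes and span the start.

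The ANP32E regions sat inside the H2A.Z regions. At 38 of the 40 genes the ANP32E region lay wholly within the H2A.Z region, and the lowest share inside was 87.0%. ANP32E regions had a median length of 1854.5 bp, against 3694.5 bp for the H2A.Z regions of the same genes. The H2A.Z regions of the 70 genes were centred upstream of the start in 68.6%, beside 50.7% of all H2A.Z promoters, and the ANP32E regions in 55%, beside 53.2%. Of the 70 H2A.Z regions 44, or 62.9%, covered several listed promoters, beside 37.9% of all. Atp5j, the gene of coupling factor 6, shared its region with Gabpa, which encodes the DNA-binding subunit of GABP. Uqcrh likewise shared a region with Lrrc41, Ndufs1 with Eef1b2 and Sdhd with Timm8b. The signal of such a region belongs to both genes, and their parts in it cannot be told apart. A CpG island lay under 66 of the 70 H2A.Z regions, or 94.3%, beside 84.2% of all H2A.Z promoters, and the exceptions were Uqcr10, Uqcrb, Ndufa9 and Atp5j2.

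At the 40 promoters with ANP32E, the median average signal was 7.95 in TAC and 9.95 in sham hearts, beside 8.34 in TAC and 8.94 in sham hearts over all 5494 ANP32E promoters. The median log2 ratio was -0.30, in a range between -0.86 and 0.25, beside -0.14 over all ANP32E promoters. Ratios were below 0 at 35 of 40 genes, or 87.5%, beside 63.5% of all promoters, and above 0 at 5, or 12.5%, beside 36.2%. Because all ANP32E regions together had a median of -0.26, the same genes read relative to that shift had a median of -0.032, with 23 below and 17 above it, while all promoters had 0.12. That shift mixes unlike regions. Regions of no promoter had a median of -0.56 without a CpG island and -0.005 over one. Of the 40 genes 39 had a region over a CpG island, where all promoters had a median of -0.12. Set against the median of all promoters, 30 of the 40 genes were lower. Past 1.5-fold, 3 genes were lower and none was higher, beside 9.25% of all promoters lower and 4.31% higher. By average signal, large differences were thus no more frequent here than elsewhere. That does not hold for lower genes by peak signal, where 8 of the 40 were lower, beside 17.2% of all promoters. By peak signal 1 gene was higher, beside 6.32%.

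The level in the sham heart moved with these ratios, and it is also part of them. All ANP32E promoters were split by sham signal into 4 groups of like size. From the strongest group to the weakest, the median log2 ratio was -0.32 over 17 of the genes, beside -0.29 over all promoters, -0.27 over 12, beside -0.21, -0.24 over 8, beside -0.11, and 0.07 over 3, beside 0.28. Split by the mean of both libraries, the medians from the strongest group to the weakest were -0.27 over 14 genes, beside -0.14 over all promoters, -0.30 over 10, beside -0.11, -0.21 over 10, beside -0.09, and -0.31 over 6, beside -0.25. The median of these genes was below that of all promoters in every group. The gap was narrower by sham level than by mean level in the stronger groups, nearly equal in the next, and wider in the weakest.

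**Figure D3:**
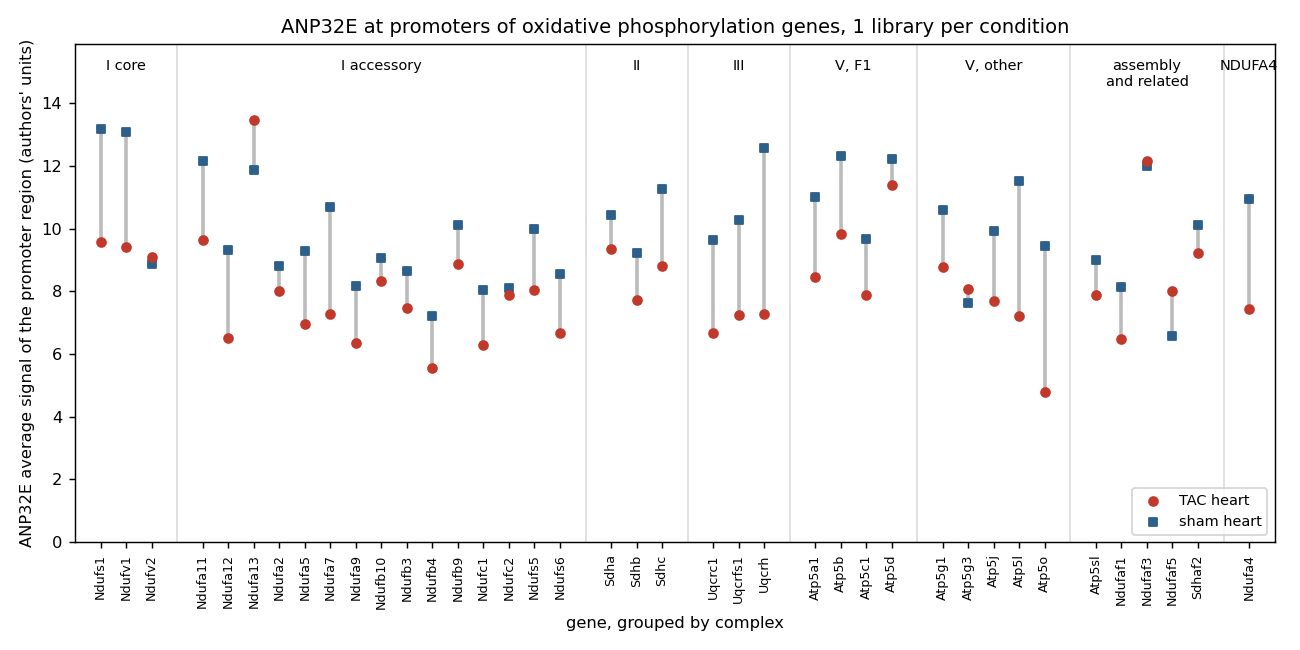
Average ANP32E signal (authors' units, linear axis from 0) at the promoter region of 39 of the 40 genes, grouped by complex, with red circles for the TAC heart library, blue squares for the sham heart library and a grey line joining them. The TAC circle lies below the sham square at 34 genes, with the widest gaps at Atp5o and Uqcrh, and above it at Ndufaf5, Ndufa13, Atp5g3, Ndufv2 and Ndufaf3.

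Among the core complex I genes, Ndufs1 and Ndufv1 had the strongest sham signals of the 40. Ndufs1 had 9.57 in TAC and 13.2 in sham hearts, and Ndufv1 had 9.42 in TAC and 13.1 in sham hearts, with log2 ratios of -0.42 and -0.44. Ndufv2 departed from them, with an average of 9.10 in TAC and 8.88 in sham hearts (0.03), while its peak was 17 in TAC and 26 in sham hearts. Peak signal was thus lower in TAC hearts at all 3 of these genes, and average signal at 2.

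Of the 15 accessory genes with ANP32E, 14 had a ratio below 0, with a median of -0.31. The lowest was Ndufa7 (7.28 in TAC, 10.7 in sham, -0.50), followed by Ndufa12 (6.51 in TAC, 9.33 in sham, -0.46) and Ndufa5 (6.96 in TAC, 9.29 in sham, -0.37). Ndufa13 was the exception, with 13.5 in TAC and 11.9 in sham hearts (0.17), yet its peak was 26 in TAC and 35 in sham hearts (-0.42), and its region was called in the sham library only. Ndufc1 showed the reverse, with an average of 6.27 in TAC and 8.03 in sham hearts and a peak of 24 in TAC and 14 in sham hearts (0.74). At these genes average and peak therefore gave opposite directions, as at 8 of the 40 genes, or 20%, and at 18.8% of all ANP32E promoters.

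In complex II, Sdha had 9.34 in TAC and 10.4 in sham hearts, Sdhb 7.71 in TAC and 9.23 in sham hearts, and Sdhc 8.82 in TAC and 11.3 in sham hearts. All 3 were lower in TAC hearts, with a median log2 ratio of -0.23, and none passed 1.5-fold. Relative to the shift of all regions, Sdhc lay below it, and Sdha and Sdhb lay above it.

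Among the genes taken by the naming rule, complex III had the lowest median of the complexes, -0.47 over 3 genes with ANP32E. Uqcrh, which encodes the hinge protein that helps cytochrome c dock, had 7.26 in TAC and 12.6 in sham hearts (-0.72), and its peak was 19 in TAC and 43 in sham hearts (-1.14). Uqcrc1 had 6.68 in TAC and 9.64 in sham hearts (-0.47), and Uqcrfs1 had 7.24 in TAC and 10.3 in sham hearts (-0.45). All 3 also lay below the shift of all regions. All 3 regions were called in the sham library only, as were 33.9% of all ANP32E promoters. All promoters called that way had a median of -0.40, with 96.7% below 0, so a low ratio goes with that call. With 3 genes complex III cannot be set apart from the other complexes. The H2A.Z ratios of the same genes were above 0, at 0.11 for Uqcrh, 0.17 for Uqcrc1 and 0.07 for Uqcrfs1.

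In complex V the F1 genes had a median of -0.28. Atp5a1 had 8.45 in TAC and 11.02 in sham hearts (-0.35), Atp5b 9.82 in TAC and 12.3 in sham hearts (-0.30), and Atp5c1 7.87 in TAC and 9.69 in sham hearts (-0.27). Atp5d lay nearest to equality, with 11.4 in TAC and 12.2 in sham hearts (-0.10), and was one of 2 genes whose region was called in the TAC library only. Peaks of the F1 genes were less uniform, with a median of -0.03, and were equal in both libraries at Atp5c1 (20) and Atp5d (23).

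The other complex V genes held 2 of the 3 largest differences. Atp5o had 4.77 in TAC and 9.44 in sham hearts (-0.86), with a peak of 12 in TAC and 28 in sham hearts (-1.16). Atp5l, the gene of subunit g in the membrane part, had 7.21 in TAC and 11.5 in sham hearts (-0.61), with a peak of 15 in TAC and 24 in sham hearts. Relative to the shift of all regions, Atp5o kept a difference past 1.5-fold (-0.59), while Uqcrh (-0.45) and Atp5l (-0.35) did not. Of these, Atp5l was called in both libraries, and Atp5o and Uqcrh in the sham library only. Atp5g1 and Atp5j were lower by less (-0.25 and -0.33), and Atp5g3, another gene of subunit c, had 8.07 in TAC and 7.63 in sham hearts (0.07).

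Assembly factors had the class median nearest to equality, -0.12 over 5 genes. Ndufaf5, which hydroxylates a complex I core subunit during assembly, had the highest ratio of the 40 genes, with 8 in TAC and 6.58 in sham hearts (0.25), and its peak was 15 in both libraries. Its region was called in the TAC library only. Ndufaf3, an early complex I assembly factor, had 12.2 in TAC and 12.0 in sham hearts, Sdhaf2, which attaches the flavin to Sdha, had 9.24 in TAC and 10.1 in sham hearts, and Ndufaf1 had 6.46 in TAC and 8.13 in sham hearts. With 5 genes the class cannot be set apart from the subunits. Ndufa4 had 7.43 in TAC and 10.9 in sham hearts (-0.50).

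**Figure D4:**
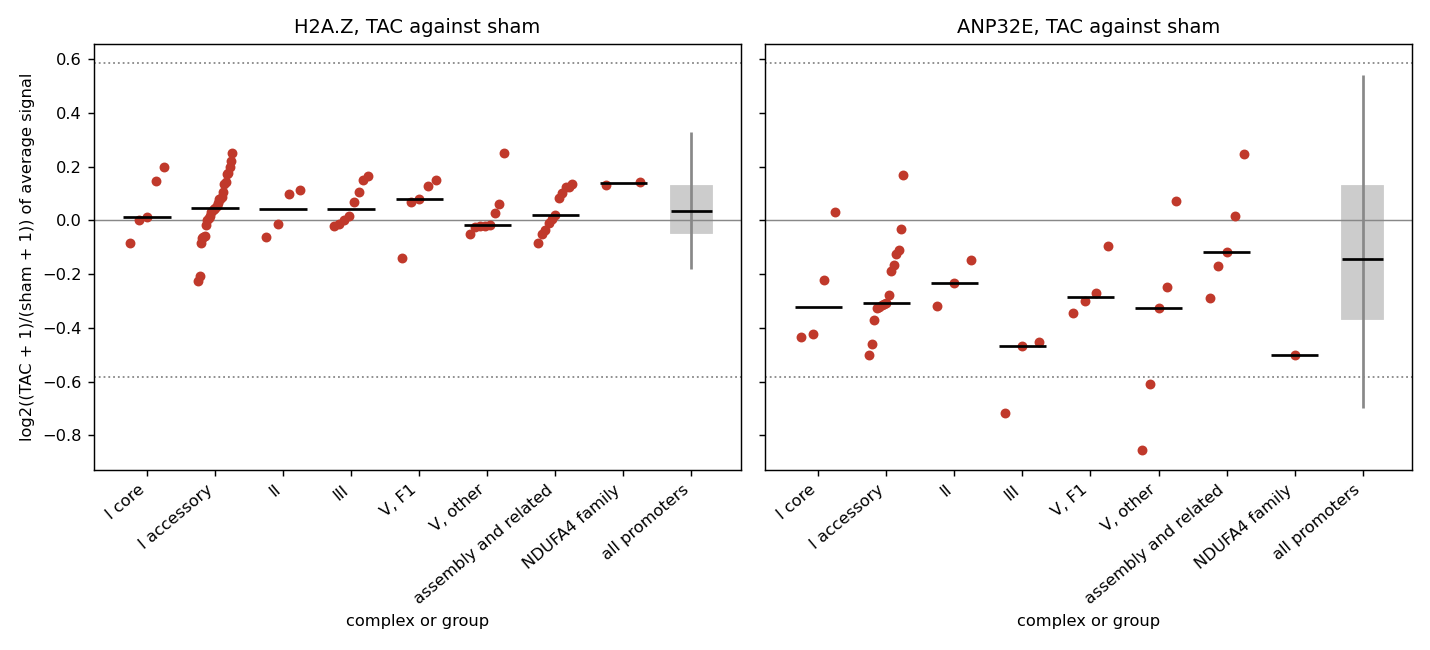
log2((TAC + 1)/(sham + 1)) of the average H2A.Z signal (left) and ANP32E signal (right) at each promoter (red points) by complex, with black bars at class medians and dotted lines at 1.5-fold. At the right of each panel the grey box spans the middle 50% of all promoters, the grey line their 5th to 95th percentile and the black bar their median, 0.04 for H2A.Z and -0.14 for ANP32E.

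Whether a region was called in a library moved with its ratio. Of the 40 ANP32E promoters 20 were called in both libraries, or 50% (48.3% of all), 18 in the sham library only, or 45% (33.9% of all), and 2 in the TAC library only, or 5% (17.8% of all). Among the 20 genes called in both, the median log2 ratio was -0.23, beside -0.08 over all promoters called in both. Among the 18 called in the sham library only, the median was -0.35, beside -0.40 over all promoters called that way. In that group these genes were therefore not lower than promoters in general. Over CpG islands the median was -0.29 for 39 of the genes and -0.12 for all promoters. Peak signal gave a median of -0.40 for the 40 genes and -0.16 for all promoters, with ratios below 0 at 31 genes, beside 60.9% of all promoters, and 8 genes lower past 1.5-fold, beside 17.2% of all promoters, and 1 higher (Ndufc1), beside 6.32%. The ANP32E table had fewer calls in the TAC library as a whole, and the part of that library in these ratios was not tested.

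The ratios of both proteins were set side by side at the 40 genes with both. ANP32E was below 0 and H2A.Z above 0 at 24 genes, or 60%, beside 28.2% of the 5440 genes with both. Both were below 0 at 11 genes, both above 0 at 2, and ANP32E was above 0 with H2A.Z below 0 at 3. Taken alone, 35 of the 40 genes were below 0 for ANP32E, and 26, or 65%, were above 0 for H2A.Z, beside 47.7% of all genes with both. Across the 40 genes the ratios of the proteins showed little relation, with a Spearman coefficient of -0.14, beside 0.12 across all 5440 genes; genes are not independent replicates and come from the same 4 libraries. H2A.Z itself had a median log2 ratio of 0.03 at the 40 genes with ANP32E and 0.07 at the 30 without, beside -0.01 and 0.07 over all genes with and without ANP32E.

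Promoter sequence was described in RefSeq windows of 300 bases, 250 before and 50 after the start, for the 59 of the 70 genes that matched. The set was compared with the 9019 matched genes whose H2A.Z promoter lay over a CpG island, since most of these genes do. The NRF1 motif was found on either strand at 8 genes (Atp5k, Atp5l, Ndufa11, Ndufa8, Ndufaf4, Ndufaf5, Uqcr11 and Uqcrc1), or 13.6%, beside 4.26% of the CpG island promoters and 1.95% of all 27025 RefSeq promoters. The shorter form GCATGCG was at 16.9%, beside 7.47% of the CpG island promoters and 4.01% of all. The ETS motif was at 15 genes, or 25.4%, beside 20.8% and 9.93%, and at 5.08% it occurred at least 2 times, beside 3.99% and 1.67%. TNAAGGTCA, the motif of the estrogen-related receptors, was at 3 genes (Atp5g3, Ndufb4 and Sdhd), or 5.08%, beside 0.832% and 1.43%. Motifs may overlap each other, and a match is not a bound site.

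General promoter motifs showed another pattern. GGGCGG, the Sp1 motif, was at 27 genes, or 45.8%, beside 74.0% of the CpG island promoters and 38.2% of all. TATAAA was at 4 genes, or 6.78%, beside 7.64% and 15.7%, and CCAAT at 26 genes, or 44.1%, beside 41.6% and 41.1%. None of the 5 complex III genes with a window held the Sp1 motif, and 8 of 10 assembly factors and relatives did. Among genes with ANP32E 32.4% of 34 held it, and among genes without ANP32E 64.0% of 25. The ETS motif was likewise at 17.6% of the genes with ANP32E and at 36.0% of those without, and the NRF1 motif at 11.8% and 16.0%. None of these differences was tested.

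**Figure D5:**
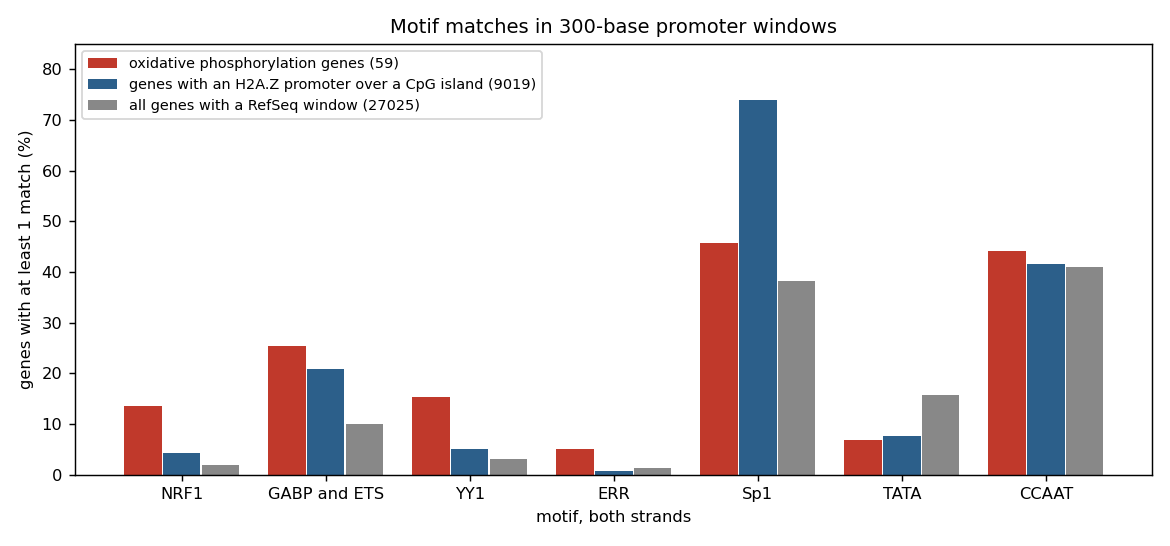
Share of genes (%, axis from 0) with at least 1 match to each motif in the 300-base promoter window, for the 59 oxidative phosphorylation genes (red), the 9019 genes with an H2A.Z promoter over a CpG island (blue) and all 27025 genes with a RefSeq window (grey). NRF1 and YY1 matches are more frequent in the red bars than in either other set, and Sp1 matches are less frequent than among the CpG island promoters.

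AAGATGGC, the motif of YY1, a zinc finger factor, was at 9 genes, or 15.3%, beside 5.06% of the CpG island promoters and 3.19% of all. At 8 of the 9 it lay on the gene's own strand within bases 20 to 43 after a RefSeq start, or 88.9%, against 29.2% of the CpG island promoters with a match and 19.6% of all promoters with one. That window was chosen after the positions were seen. Atp5sl has 2 RefSeq starts, and from the one that is also the start in the tables its match lies upstream, at base -53. The matches are shown with their surroundings because they lie at nearly the same place, with the first base of the match between 23 and 39. Each run has 30 bases on the gene's strand, with the match in capitals. They lie at chr5:145191500-145191529 (minus strand) for Atp5j2, chr7:25619429-25619458 (plus strand) for Atp5sl, chr7:3617384-3617413 (plus strand) for Ndufa3, chr6:126849097-126849126 (minus strand) for Ndufa9, chr19:44555393-44555422 (minus strand) for Ndufb8, chr3:51408915-51408944 (minus strand) for Ndufc1, chr13:114388045-114388074 (minus strand) for Ndufs4 and chr13:73328433-73328462 (minus strand) for Ndufs6.
Atp5j2: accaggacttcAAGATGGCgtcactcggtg
Atp5sl: cgttacctggcAAGATGGCggcgcccagag
Ndufa3: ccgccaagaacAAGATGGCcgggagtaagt
Ndufa9: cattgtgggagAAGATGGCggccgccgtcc
Ndufb8: tgaaccgcggagaaggtgAAGATGGCtgcc
Ndufc1: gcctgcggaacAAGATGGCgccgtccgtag
Ndufs4: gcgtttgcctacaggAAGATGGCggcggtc
Ndufs6: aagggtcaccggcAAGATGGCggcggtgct

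The motif contains ATG, and whether that ATG is the start codon was not examined. Of these 8 genes 6 are complex I accessory subunits, and Atp5sl is a complex I assembly protein despite its name. Accessory subunits were already 25 of the 59 genes with a window, and whether the motif favours them was not tested. The H2A.Z ratios of the 8 genes ran from -0.21 at Ndufc1 to 0.22 at Ndufb8. That spans most of the range of all 70 genes. ANP32E was listed at Atp5sl, Ndufa9, Ndufc1 and Ndufs6, with log2 ratios between -0.32 and -0.17.

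Lists of related pathways were set beside these genes and beside all promoters, whose medians were 0.035 for H2A.Z and -0.14 for ANP32E. Of all promoters, 0.146% were lower and 0.437% higher past 1.5-fold for H2A.Z, and 9.25% lower and 4.31% higher for ANP32E. Of 16 complex IV subunit genes all had an H2A.Z promoter, with a median log2 ratio of 0.03, 1 lower past 1.5-fold (Cox6a2) and none higher, and 8 had ANP32E, with a median of -0.32 and 3 lower. Of 18 citrate cycle and pyruvate dehydrogenase genes 17 had H2A.Z, with a median of 0.07, and 12 had ANP32E, with a median of -0.38, 4 lower and none higher. The lowest was Idh3g, which encodes a subunit of isocitrate dehydrogenase, with an ANP32E signal of 5.02 in TAC and 11.2 in sham hearts (-1.02). The list of cytochrome c and coenzyme Q genes had medians of 0.005 for H2A.Z over 13 genes and -0.19 for ANP32E over 9 genes, 1 of them lower. It also held Cyc1, the gene of cytochrome c1 in complex III, which the naming rule leaves out. At Cyc1 the ANP32E signal was 8.365 in TAC and 8.167 in sham hearts (0.03), and the H2A.Z log2 ratio was -0.002. Assembly factors with other names had 0.02 over 19 genes and -0.24 over 11 genes, 3 of them lower. That list also held the complex V subunit gene Usmg5 and the ATP synthase inhibitor gene Atpif1, both with H2A.Z only. Regulators of respiratory genes, such as Tfam and Esrra, had -0.02 over 16 genes and 0.02 over 9 genes, with none past 1.5-fold. Gabpa is among these regulators and shares its regions with Atp5j, so the same values enter both sets.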

How the data were processed

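The values are signals: per the file headers, the authors deposited 1 table per antibody in which each merged region carries an average and a peak signal for the TAC and the sham library, whether that library had a called interval, CpG islands, and nearby genes with the distance from the region's centre to their start. Per the submitters' processing notes, BWA and SICER were used with mm10. Versions, scaling for depth and the role of the input: not given in the sources used here. Signals were used as deposited, as log2((TAC + 1)/(sham + 1)), and counted as higher or lower from 1.5-fold. With 1 library per group no test was made. The procedure was tested on simulated data. Members, lists and tests were chosen with earlier results of these data known. Named genes were drawn from those that passed 1.5-fold, were highest or lowest in their class, or were among the 4 strongest or weakest promoters. They were also drawn from core complex I, complex II and alpha, beta and gamma F1 genes, and from genes with several regions or no promoter region. Not every gene of these groups is named or given with its values. Ndufb8, Ndufc1, Ndufb2, Ndufa12, Ndufa5, Ndufaf3, genes with a motif, genes sharing a region and genes of related lists were added after their values were seen. The values of 1 gene are not reported here, although it stays in the counts. Of the 70 genes 59 matched a RefSeq promoter window (GRCm38.p6), and 61 of their 65 windows had a start within 100 bp of the start in the tables. Alternatives were the peak signal, other pseudocounts, thresholds and promoter rules, subsets of regions, and centred ratios. Python 3.11.15, numpy 2.4.6, pandas 2.3.3 and matplotlib 3.10.9 were used.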

Additional observations from a re-analysis of the deposited data

How the results depend on the processing

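No paired analysis was possible because each antibody and condition has 1 library, and for the same reason no library could be left out. The signal scale and depth are unknown, so no counting error can be given. The median H2A.Z log2 ratio of the 70 genes was 0.18 with peak signal, which also counted 1 gene as higher. For ANP32E, peak signal counted 8 genes as lower and 1 as higher. The 3 lower genes became 0 with a pseudocount of 5 or a threshold of 2-fold, 1 among regions called in both libraries, which leaves 20 genes, and 1 after centring on the median of all regions, which moved the median ratio to -0.032. The share of H2A.Z promoters with ANP32E was 28.6% with ANP32E regions called in both libraries. Apart from the loss of regions by construction, the cause was not tested. The other 73 values of medians, counts and shares stayed within the limits set for them. The limits were 0.1 log2 for a median, 1.5 times for a count, and the 95% binomial interval of the main value for a share. Medians and counts had 10 alternatives per table and 3 more chosen after seeing the data (distance limit first, single-promoter regions, CpG island regions). The share had fewer alternatives.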

Other observations

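Regions outside the promoters were listed beside the same genes. For H2A.Z there were 56 such regions at 37 genes, with a median log2 ratio of -0.01. Of these, 2 of the 25 without a CpG island were lower past 1.5-fold, or 8%, beside 6.58% of all such H2A.Z regions of no promoter, and none of the 31 over a CpG island, beside 0.371%. The lower regions lay 17762 bp downstream of the start of Ndufs6 (7.35 in TAC, 13.4 in sham) and 13870 bp downstream of Ndufb2 (6.08 in TAC, 10.7 in sham), and both were called in the sham library only. Regions inside a gene were listed for Atp5s and Ndufaf2 with H2A.Z and for Ndufa7 with ANP32E. The ANP32E table held 29 regions outside the promoters at 20 genes, of which 7 were lower past 1.5-fold and none was higher. Among all ANP32E regions of no promoter, 121 of the 3154 without a CpG island and 90 of the 639 over one were higher. Lower regions made up 5 of the 8 without a CpG island, or 62.5%, beside 47.7% of all such regions of no promoter, and 2 of the 21 over a CpG island, or 9.52%, beside 8.14%. The 8 of them without a CpG island were all below 0, with a median of -0.60, beside -0.56 over all 3154 such regions, and the 21 over a CpG island had a median of -0.04, beside -0.005 over all 639. The lowest was 8166 bp upstream of Ndufa3 (2.54 in TAC, 7.26 in sham). Many of these regions are also listed beside other genes, and some are the promoters of those genes.

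Some genes of the same complexes are listed under older symbols and fell outside the naming rule. Acn9, now Sdhaf3, an assembly factor of complex II, had an ANP32E signal of 5.29 in TAC and 8.61 in sham hearts (-0.61) and an H2A.Z signal of 29.7 in TAC and 27.9 in sham hearts. Usmg5, now Atp5md, a small subunit of complex V, had an H2A.Z signal of 37.9 in TAC and 33.1 in sham hearts (0.19). The assembly factor genes 1110058L19Rik, now Sdhaf4, and 1810043H04Rik, now Ndufaf8, had H2A.Z signals of 29.3 and 36.7 in TAC hearts, against 28.4 and 36.8 in sham hearts, and 1110058L19Rik had an ANP32E signal of 5.83 in TAC and 7.64 in sham hearts (-0.34). The complex V gene 2010107E04Rik, now Atp5mpl, had an H2A.Z signal of 27.1 in TAC and 28 in sham hearts (-0.04) and an ANP32E signal of 8.39 in TAC and 9.84 in sham hearts (-0.21).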
